A study of Zea mays with 12 samples.

Results

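Arginine decarboxylase 2 (Zm00001eb185400), LOB domain-containing protein 37 (Zm00001eb051620), glutaredoxin-C1 (Zm00001eb131840) and amino acid transporter AVT1C (Zm00001eb278120) are 4 maize genes with transcripts in a control library of disease-susceptible plants and almost none in the 3 libraries of susceptible plants under BV-3. They are 4 of the 52932 genes in the deposited table, and all 4 had enough counts to be among the 34291 genes tested. They were picked by their FPKM, the authors' fragment count scaled to gene length and to library size, in CK susceptible library 1 and in BV-3 susceptible libraries 1 to 3. Levels in those 4 libraries are therefore described here without a test. The names are the ones the table gives as the closest described proteins, mostly from rice and Arabidopsis, and roles below are known from those plants unless stated otherwise.

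RNA came from whole maize (Zea mays) plants and was read in 12 libraries, 3 in each of 4 groups. The groups combine a treatment label, BV-3 (a Bacillus strain) or CK (the control), with a class of plant, disease-susceptible or disease-resistant. Each library is described as its own biosample. Genotype, plant age, dose and time of harvest are not stated in the labels used here. Libraries held 27 to 37.8 M counts.

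Arginine decarboxylase turns arginine into agmatine, the first step of the plant route to putrescine, from which the polyamines spermidine and spermine are built. Polyamines accumulate in plants under stress, and their oxidation releases hydrogen peroxide. Glutaredoxin-C1 belongs to a land-plant class of small redox proteins that bind TGA transcription factors, and members of this class respond to nitrate and to defence hormones in Arabidopsis. AVT1 proteins are known from yeast and Arabidopsis as carriers of amino acids across the vacuolar membrane. LBD37 is a DNA-binding protein of the LATERAL ORGAN BOUNDARIES family that represses anthocyanin genes and nitrogen-responsive genes in Arabidopsis.

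Some libraries went against their label or stood apart. Changes tested in the resistant class and the count of list genes called are given with and without single libraries. Fold changes of the list genes named as passing are also given without CK susceptible libraries 2 and 3. Genes present in all BV-3 libraries of one class and nearly absent from the other class served as markers of the plant line. CK susceptible library 1 had 98% of the 246 susceptible markers above 1 CPM (counts per M) and 0.59% of the 339 resistant markers. CK susceptible libraries 2 and 3 had 0.813 and 1.63% of the susceptible markers and 94.4 and 95% of the resistant ones, like the CK resistant libraries, which had 0 to 1.22% and 93.8 to 97.6%. None of the 4 genes was among these markers (0 and 0). For the susceptible markers this was fixed in advance, since the genes were picked for near absence from the BV-3 susceptible libraries. It therefore does not bear on the part of plant line in their levels. CK resistant library 2 had a summed FPKM of 1961 over 113 photosynthetic leaf genes, of which 25 were at 0 in all libraries, against 14219 to 51360 elsewhere. Its sum over 471 genes of growing tissue was 82842, against 9754 to 22874 elsewhere. In the same library the sum over 82 root genes was 296, the lowest of all, against 315 to 497 elsewhere. The median log2(FPKM + 1) of these root genes was not low in it, at 0.282 against 0.0637 to 0.3 elsewhere. At least 1 FPKM was reached by 27 of them, against 21 to 28 elsewhere. Over 6 Casparian strip proteins, which mark the root endodermis, the sum in this library was 15.2 against 0.384 to 7.22. The sum of 88 kernel and flower genes, 35 of them at 0, was highest there, at 450 against 161 to 313. The summed level of 4 LHY genes, morning genes of the circadian clock, was 73.9 to 255 FPKM in CK libraries and 487 to 2954 in BV-3 libraries. Single LHY genes did not all follow the sum, and NewGene_6153 had 0, 9.73 and 6.78 FPKM in CK susceptible and 0.0256, 0 and 0 FPKM in BV-3 susceptible libraries. The part of line, tissue and clock in the levels of the 4 genes was not tested.

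Arginine decarboxylase 2 had the highest mean FPKM of the 4 genes in both control groups, although AVT1C was higher in CK resistant libraries 2 and 3. Its FPKM was 57.6, 47.8 and 57.0 in CK susceptible libraries 1, 2 and 3, and 89.7, 2.74 and 13.7 in CK resistant libraries 1, 2 and 3. In the BV-3 susceptible libraries it was 0.0143, 0.0336 and 0.0498 FPKM, which rests on 2, 4 and 5 counts. In the BV-3 resistant libraries it was 0, 0 and 0.321 FPKM, from 0, 0 and 28 counts. The control libraries thus held transcripts in both disease classes, with a wide spread in the resistant class, and every BV-3 library of either class lay below every control library. Group means were 54.1 ± 5.48 FPKM for CK susceptible, 35.4 ± 47.4 for CK resistant, 0.0326 ± 0.0177 for BV-3 susceptible and 0.107 ± 0.186 for BV-3 resistant (SD, n = 3).

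The resistant class was not used to choose the genes, so BV-3 against CK can be tested there. Across all genes, edgeR's quasi-likelihood test called 0 of 34291 genes in this comparison at an adjusted p under 0.05 (0%), with 3452 genes at an unadjusted p under 0.05. DESeq2 called 1044 genes (3.04%). For arginine decarboxylase 2 the BV-3 mean was 0.303% of the CK mean, and the log2 fold change was -8.33 ± 1.71 (SE). Its adjusted p was 0.265 by edgeR with Benjamini-Hochberg adjustment and 2.33e-06 by DESeq2, so the call depended on the tool. The 3 BV-3 values lay below the 3 CK values, as they did for 9.46% of all genes tested, and the exact two-sided permutation test gave 0.1, the smallest p that 3 against 3 allows. Without BV-3 resistant library 3 the fitted log2 fold change was -14.45, against a BV-3 group with no count left, so that this value depends on the fit's prior count. It was -6.08 without CK resistant library 1, the library with the highest level, and -8.89 without CK resistant library 2.

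Glutaredoxin-C1 had 14.3, 15.6 and 6.47 FPKM in CK susceptible libraries 1, 2 and 3, and 2.5, 0.174 and 8.34 FPKM in CK resistant libraries 1, 2 and 3. No count fell on it in any BV-3 susceptible library. In the BV-3 resistant libraries it had 0.238, 0 and 3.31 FPKM. The susceptible control libraries were all above the BV-3 ones, while in the resistant class the groups overlapped, because CK resistant library 2 was low and BV-3 resistant library 3 was high. A count of 0 allows up to 3 counts per library, or 0.0793 to 0.0928 CPM at these depths. Against the highest of these floors, which covers counting error only, the BV-3 susceptible level was at least 117-fold lower than the 10.8 CPM of CK susceptible library 1, whose line markers matched its label; these libraries chose the gene, so this is a description. The group means in the resistant class were 3.67 ± 4.21 FPKM under CK and 1.18 ± 1.85 under BV-3 (SD, n = 3). The log2 fold change there was -1.48 ± 1.60 (SE, edgeR adjusted p = 0.792; exact two-sided permutation p = 0.6).

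Amino acid transporter AVT1C had 4.07, 39.5 and 6.73 FPKM in CK susceptible libraries 1, 2 and 3, and 11, 2.87 and 32.9 FPKM in CK resistant libraries 1, 2 and 3. In the BV-3 susceptible libraries it had 0, 0.0647 and 0.0280 FPKM, from 0, 6 and 3 counts. In the BV-3 resistant libraries it had 0.165, 0.157 and 4.09 FPKM. The gene varied widely among controls of both classes, and its highest level was in CK susceptible library 2, one of those whose line markers went against the label. Among resistant libraries, BV-3 was below CK in 8 of the 9 pairs of a BV-3 and a CK library, the exception being BV-3 library 3 against CK library 2. The means were 15.6 ± 15.5 FPKM under CK and 1.47 ± 2.27 under BV-3 (SD, n = 3), or 9.44% of the CK mean. The log2 fold change was -3.26 ± 1.43 (SE) with an unadjusted p of 0.0432 and an adjusted p of 0.486 by edgeR, and the exact two-sided permutation p was 0.2.

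LOB domain-containing protein 37, called LBD37 below, had 6.56, 23.7 and 12.7 FPKM in CK susceptible libraries 1, 2 and 3, and 2.63, 0.314 and 6.71 FPKM in CK resistant libraries 1, 2 and 3. In the BV-3 susceptible libraries it had 0.0516, 0.0360 and 0 FPKM, from 3, 3 and 0 counts. In the BV-3 resistant libraries it had 0.221, 0.0631 and 6.50 FPKM. BV-3 resistant library 3 thus held about as much as the highest CK resistant library, while BV-3 resistant libraries 1 and 2 were below all CK resistant libraries. The resistant means were 3.22 ± 3.24 FPKM under CK and 2.26 ± 3.67 under BV-3 (SD, n = 3). The log2 fold change was -0.36 ± 1.38 (SE, edgeR adjusted p = 0.971; exact two-sided permutation p = 0.5), and it turned to 0.65 without CK resistant library 3, to 0.17 without BV-3 resistant library 1 and to 0.21 without BV-3 resistant library 2.

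**Figure D1:**
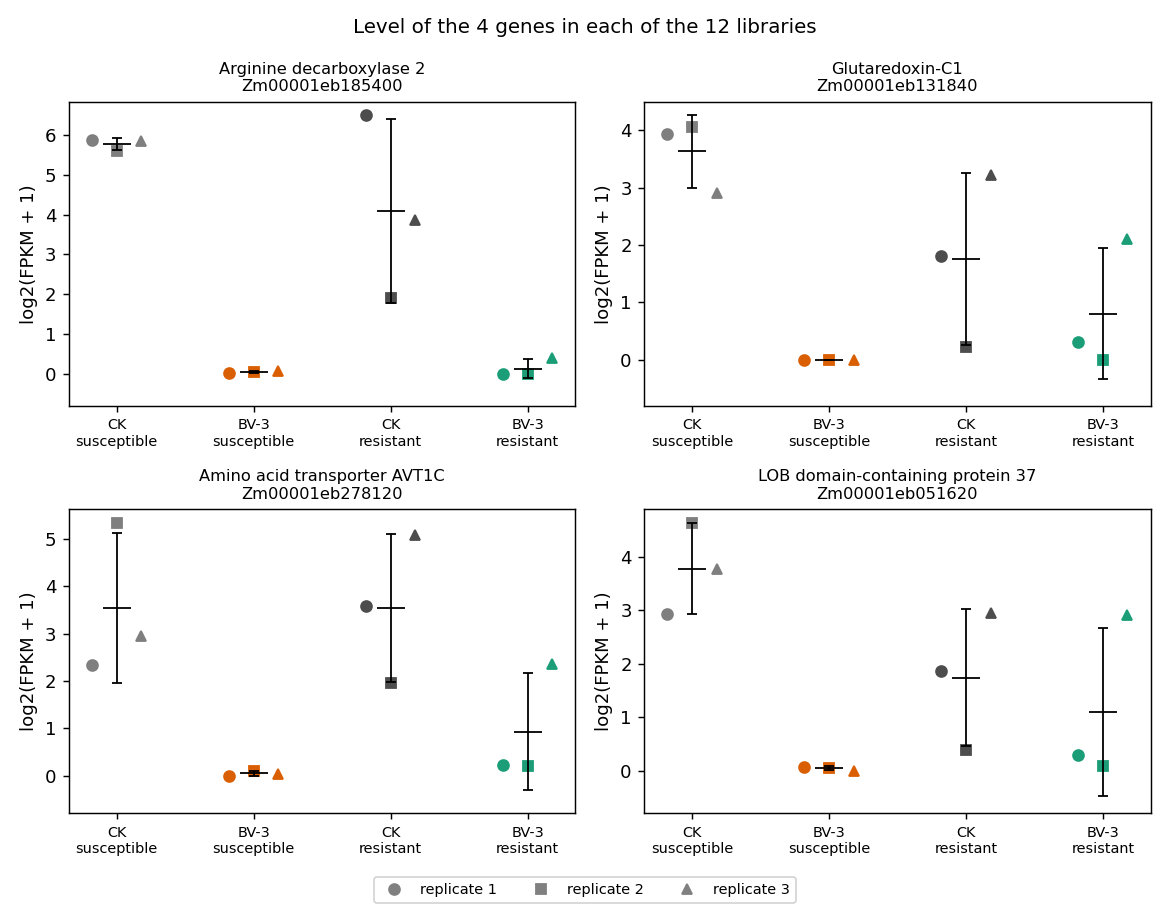
Level of each of the 4 genes as log2(FPKM + 1) on the vertical axis, by group on the horizontal axis; each point is a library, its shape gives the replicate number, and the bar is the mean ± SD of 3 libraries. The BV-3 susceptible libraries all sit at or near 0, CK resistant library 2 is the lowest CK resistant point in all 4 panels, and BV-3 resistant library 3 is the highest BV-3 resistant point in all 4.

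The plot of levels by group shows the same pair of libraries at the edges of the resistant groups in each panel. CK resistant library 2 was the lowest of its group for 4 of 4 genes, a place it held for 45.4% of all genes tested, and it is the library with few photosynthetic and many growing-tissue transcripts. In bulk RNA of whole plants, fewer cells of a type and less RNA per cell cannot be told apart. BV-3 resistant library 3 was the highest of its group for 4 of 4 genes, against 23.2% of all genes. BV-3 resistant libraries 1 and 2 lay below every CK resistant library for 3 of the 4 genes, against 11.8% of all genes, the exception being glutaredoxin-C1. BV-3 resistant library 3 had 0.117 times the level of CK resistant library 2 for arginine decarboxylase 2, and 19, 1.43 and 20.7 times its level for glutaredoxin-C1, AVT1C and LBD37. Its LHY sum of 2499 FPKM lay between those of BV-3 resistant library 1 (2954) and library 2 (1206).

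**Figure D2:**
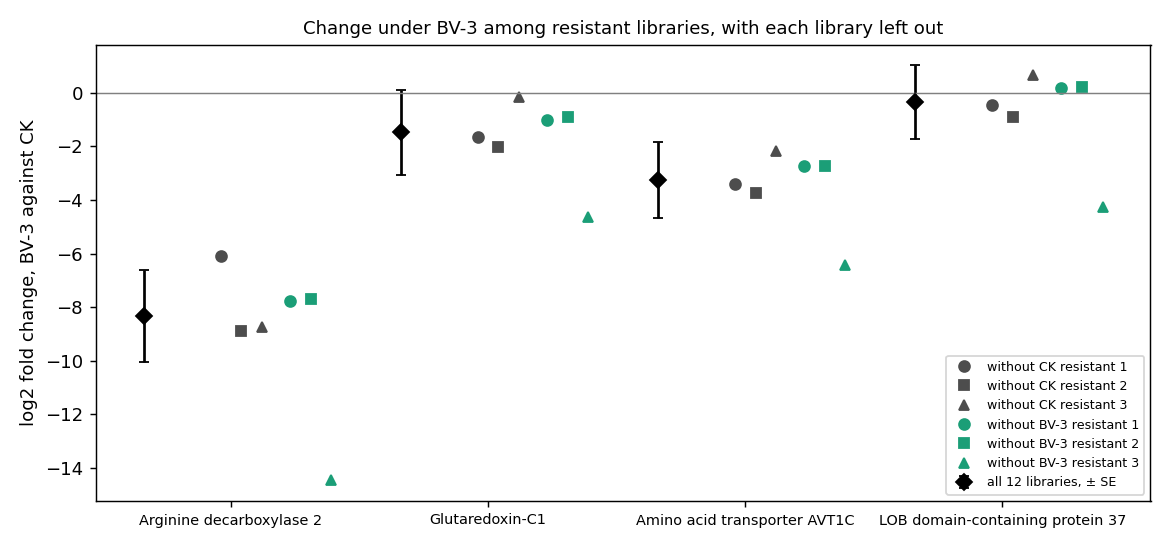
Log2 fold change of BV-3 against CK among resistant libraries on the vertical axis for each of the 4 genes, with the black diamond and bar giving the fit of all 12 libraries ± SE and each other symbol the fit without 1 resistant library. Leaving out BV-3 resistant library 3 gave the lowest value for each gene, from -14.45 for arginine decarboxylase 2 to -4.25 for LBD37, and the LBD37 values lie on both sides of 0.

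The plot of fits without 1 library shows how much the resistant comparison turned on that library. Without it the fitted changes were -4.63 for glutaredoxin-C1, -6.44 for AVT1C and -4.25 for LBD37, with edgeR adjusted p of 0.650, 0.525 and 0.604. Without CK resistant library 2 they were -2.04, -3.75 and -0.90. Without CK resistant library 3 they were -0.16, -2.19 and 0.65. Arginine decarboxylase 2 was the 1 gene of the 4 whose resistant groups did not overlap with all libraries in. A label of silencing in susceptible plants covers only part of these values, because BV-3 resistant libraries 1 and 2 were at or below 0.238 FPKM for all 4 genes. CK resistant library 2 was also low, without BV-3, for glutaredoxin-C1 (0.174 FPKM) and LBD37 (0.314), less so for arginine decarboxylase 2 (2.74) and AVT1C (2.87). BV-3 resistant library 3 had 6.5 FPKM of LBD37. Whether the change differed between the disease classes was not tested, since the susceptible libraries chose the genes.

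The 4 genes kept different orders among the control libraries. Pearson correlations of log2(FPKM + 1) between pairs of them were 0.78 to 0.96 over the 12 libraries, which include those that chose the genes, and 0.69 to 0.96 over the 9 libraries other than CK susceptible 2 and 3 and CK resistant 2. Over the 6 resistant libraries, which did not enter the choice, they ranged from 0.43 to 0.96. The highest there was glutaredoxin-C1 with LBD37 (0.96), then glutaredoxin-C1 with AVT1C (0.90) and AVT1C with LBD37 (0.82). Arginine decarboxylase 2 had lower values, 0.77 with AVT1C, 0.55 with glutaredoxin-C1 and 0.43 with LBD37. Over the 6 CK libraries, glutaredoxin-C1 and LBD37 again had the highest value, 0.90, and arginine decarboxylase 2 and AVT1C the lowest, 0.23. These points share libraries, depth and the low level of CK resistant library 2, and are given as a description.

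The table named 1 other arginine decarboxylase, arginine decarboxylase 1 (Zm00001eb378210), which catalyses the same reaction. Its FPKM was 71.0, 56.8 and 46.3 in CK susceptible libraries 1, 2 and 3, and 53.1, 56.1 and 68.4 in CK resistant libraries 1, 2 and 3. It was 101, 112 and 63.5 in the BV-3 susceptible libraries and 54.0, 59.2 and 64.6 in the BV-3 resistant libraries. It was present in every library, including CK resistant library 2, and no change passed the test, with log2 fold changes of 0.65 in the susceptible class (edgeR adjusted p = 0.208) and 0.08 in the resistant class (edgeR adjusted p = 0.973). Arginine decarboxylase 2 made up 44.8, 45.7 and 55.2% of the summed FPKM of both genes in CK susceptible libraries, and 62.8, 4.66 and 16.7% in CK resistant libraries. In the BV-3 libraries of both classes its share was at most 0.495%. The summed FPKM was 103 to 129 in CK susceptible and 63.6 to 112 in BV-3 susceptible libraries, and 58.8 to 143 in CK resistant against 54 to 64.9 in BV-3 resistant libraries.

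**Figure D3:**
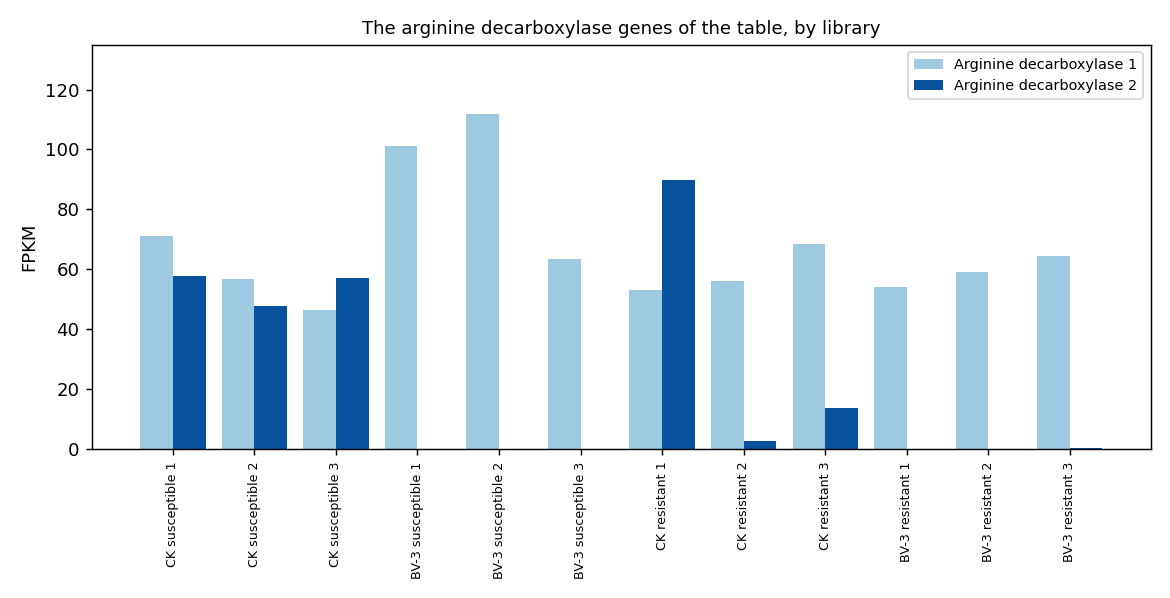
FPKM of arginine decarboxylase 1 (light bars) and arginine decarboxylase 2 (dark bars) on the vertical axis in each of the 12 libraries on the horizontal axis. Arginine decarboxylase 1 is present throughout, from 46.3 to 112 FPKM, while arginine decarboxylase 2 ranges from 2.74 to 89.7 FPKM in CK libraries and reaches at most 0.321 FPKM in BV-3 libraries.

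The bars of both decarboxylases by library show that the enzyme's transcripts in BV-3 libraries came almost wholly from the first gene. In CK resistant libraries 2 and 3 the first gene was already the larger part, while in CK resistant library 1 the second was.

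The other glutaredoxin-C1 genes had a pattern close to that of the member. Zm00001eb131830, the member's neighbour in RefSeq (Zm-B73-REFERENCE-NAM-5.0), had 14.9, 8.02 and 2.08 FPKM in CK susceptible libraries and 1.63, 0 and 5.09 FPKM in CK resistant libraries. It had no count in any BV-3 susceptible library, and 0, 0 and 1.01 FPKM in BV-3 resistant libraries. Zm00001eb004060 had 0, 6.47 and 2.62 FPKM in CK susceptible and 0.473, 0.161 and 5.28 FPKM in CK resistant libraries, none in BV-3 susceptible libraries, and at most 0.0707 FPKM in BV-3 resistant ones. It was at 0 in CK susceptible library 1, so that its difference between CK and BV-3 susceptible libraries rests on the libraries that went against their label. All 3 genes named glutaredoxin-C1 reached at least 2 FPKM somewhere and stayed at or below 0.3 FPKM in every BV-3 susceptible library. Whether reads of such close copies were kept apart in counting is not stated, so the split between the neighbouring pair is uncertain.

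The AVT1 genes differed among themselves. The table named 19 AVT1 genes, of which 16 were tested and 14 reached at least 2 FPKM in a library. Of these 14, 6 were at or below 0.3 FPKM in every BV-3 susceptible library, the member among them. Among the 6, Zm00001eb337880, NewGene_27732 and NewGene_13184 were also at 0 in CK susceptible library 1. AVT1B (Zm00001eb154750) was nearest to the member, with 0.778, 4.18 and 1.47 FPKM in CK susceptible, 1.23, 0.123 and 3.38 FPKM in CK resistant, 0, 0.0136 and 0 FPKM in BV-3 susceptible and 0, 0 and 0.511 FPKM in BV-3 resistant libraries. A different gene also named AVT1C, Zm00001eb337880, was absent from BV-3 susceptible libraries (0 FPKM in all 3) but also from CK susceptible library 1, and had 8.08, 15.6 and 17.6 FPKM in BV-3 resistant libraries. AVT1J (Zm00001eb161250) was the most abundant of the family, with 104, 17.7 and 13.6 FPKM in CK susceptible and 286, 371 and 190 FPKM in BV-3 susceptible libraries. In the resistant class it had 109, 20.1 and 52.7 FPKM under CK and 182, 115 and 89.4 FPKM under BV-3. Its log2 fold changes were 2.61 and 1.15 in the susceptible and resistant classes, and neither passed the test (edgeR adjusted p = 0.0858 and 0.659).

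LBD37 had a pair of namesakes. Zm00001eb326200 had 5.99, 1.63 and 1.64 FPKM in CK susceptible and 5.88, 4.30 and 4.32 FPKM in BV-3 susceptible libraries. In the resistant class it had 1.27, 1.91 and 7.21 FPKM under CK and 1.13, 14.2 and 7.81 FPKM under BV-3. Its values overlapped between treatments in both classes. Zm00001eb108240 was low throughout, with at most 1.75 FPKM, in CK susceptible library 1.

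**Figure D4:**
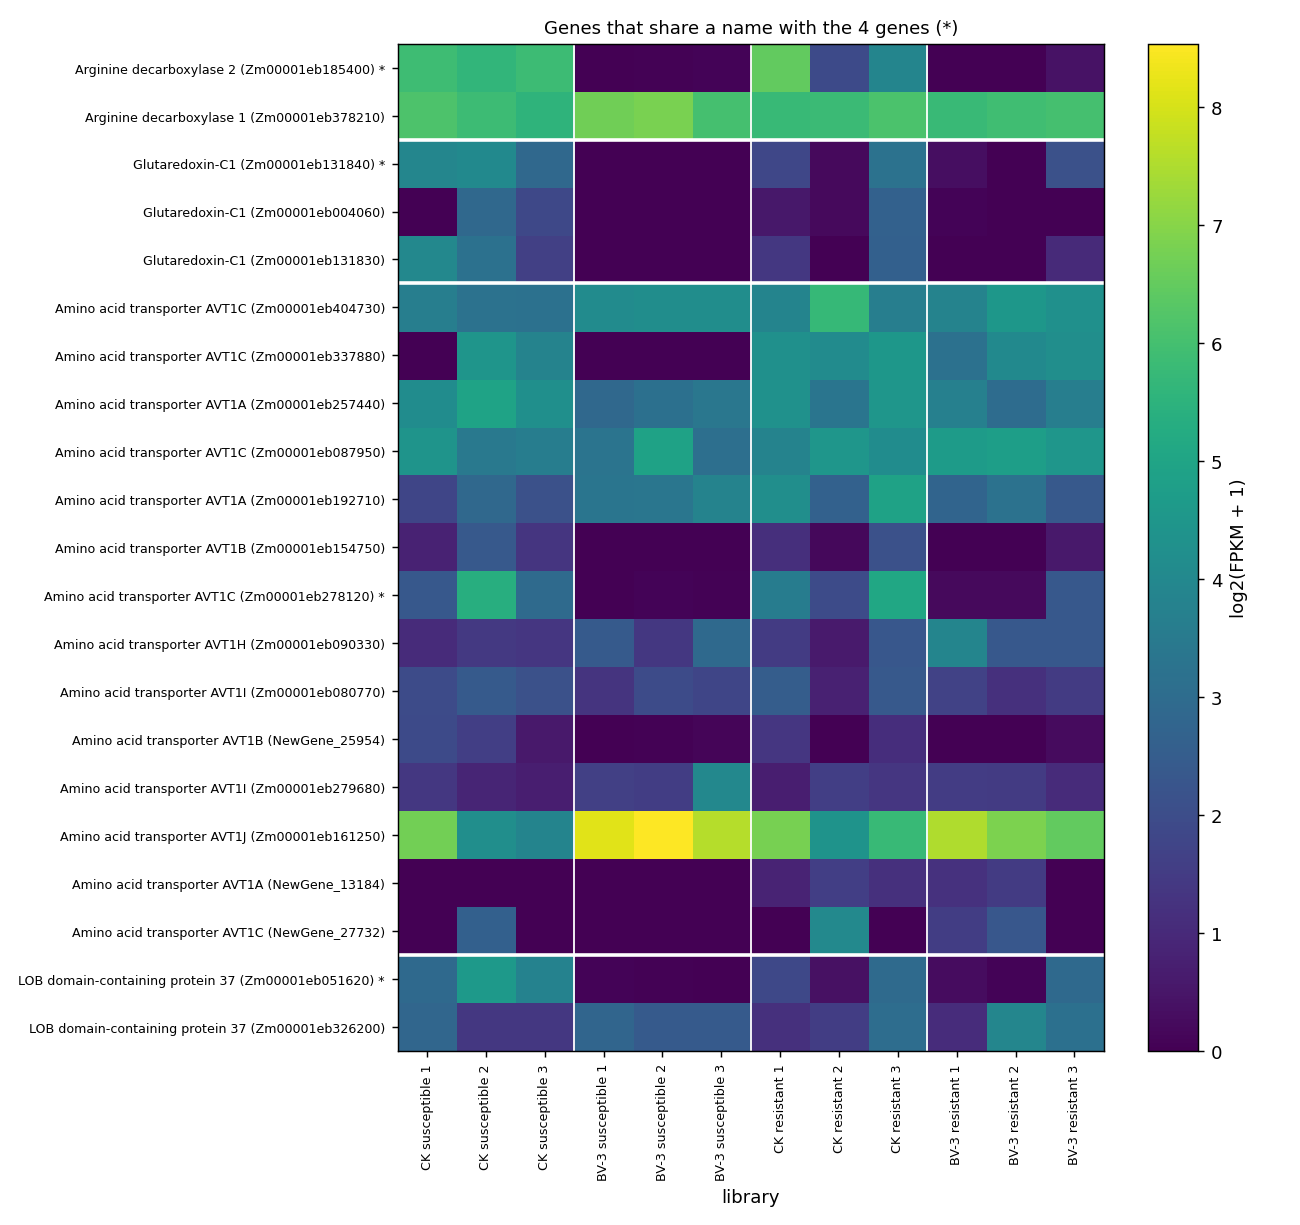
Heat map of log2(FPKM + 1), from dark (0) to yellow (highest), for genes that share a family name with the 4 genes and reached at least 2 FPKM in a library; rows are genes with the 4 members starred, columns are the 12 libraries, and white lines separate families and groups. Both other glutaredoxin-C1 genes and AVT1B are dark in BV-3 susceptible libraries like the starred genes, whereas arginine decarboxylase 1, AVT1J and the other LBD37 gene are not.

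The heat map of namesakes sets each member beside its closest named relatives. Most measured neighbours of the members on the chromosome had transcripts in BV-3 susceptible libraries. Of 16 neighbours looked for in RefSeq's Zm-B73-REFERENCE-NAM-5.0, the closest 4 of each member, 12 matched a gene of the table and 9 reached at least 1 FPKM in a library. Among these 9, only the second glutaredoxin-C1 gene was at or below 0.3 FPKM in every BV-3 susceptible library. Phosphatidylinositol 4-kinase gamma 4 (Zm00001eb278110), beside AVT1C, had 55.5, 46.3 and 41.9 FPKM in CK susceptible and 77.4, 74.3 and 85.6 FPKM in BV-3 susceptible libraries. Probable anion transporter 7 (Zm00001eb051610), beside LBD37, had 4, 4.88 and 5.36 FPKM in CK susceptible and 4.25, 5.68 and 6.46 FPKM in BV-3 susceptible libraries. On the other side of AVT1C, cyclin-dependent kinase F-1 (Zm00001eb278130) was lower under BV-3, with 6.15, 12.3 and 8.43 FPKM in CK susceptible and 3.48, 3.04 and 4.84 FPKM in BV-3 susceptible libraries (log2 fold change -1.24, edgeR adjusted p = 0.046). Alpha-glucan water dikinase (Zm00001eb278140), the next gene, had 37.9, 75.1 and 71 FPKM in CK susceptible and 11.5, 7.97 and 29 FPKM in BV-3 susceptible libraries (log2 fold change -1.94, edgeR adjusted p = 0.0749). These groups did not overlap, with BV-3 lower, as in 14.1% of all genes tested.

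Few genes of the table had the on and off pattern of the 4. Of 16227 genes with at least 4 FPKM in CK susceptible library 1, 13 (0.0801%) were at or below 0.3 FPKM in each BV-3 susceptible library, and the 4 members are among the 13. The thresholds were set around the members, so the count is a description; it was 34 with at least 2 FPKM in the control library and 9 with at most 0.1 FPKM under BV-3. The other 9 comprise the second glutaredoxin-C1 gene, glutaredoxin-C15 (Zm00001eb410450), chitinase 9 (Zm00001eb228500) and chitinase 3 (Zm00001eb228510), which cut fungal cell wall chitin, 14-3-3-like protein GF14-D (Zm00001eb300650), germin-like protein 4-1 (Zm00001eb070560), an aspartate aminotransferase fragment (NewGene_16965) and 2 genes with no name (Zm00001eb283720 and NewGene_9014). AVT1C was the member nearest to the presence threshold, at 4.07 FPKM. Just outside lay trehalose 6-phosphate phosphatase RA3 (Zm00001eb327900), with 3.61 FPKM in the control library, and Zm00001eb316060, with a highest BV-3 susceptible value of 0.333 FPKM.

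The members differ from most of these others in the remaining control libraries. Chitinase 9 had 37.7 FPKM in CK susceptible library 1 but 1.06 and 0.279 FPKM in libraries 2 and 3, and 14-3-3-like protein GF14-D had 38.8, 0 and 0.0647 FPKM. Of the 9 others, 4 had at least 1 FPKM in both CK susceptible libraries 2 and 3, as all members did, and 2 of these 4 are glutaredoxins. Glutaredoxin-C15 had 9.13, 5.51 and 6.75 FPKM in CK susceptible, 2.73, 0.282 and 4.39 FPKM in CK resistant, 0.240, 0.0460 and 0 FPKM in BV-3 susceptible and 0.171, 0.0558 and 2.85 FPKM in BV-3 resistant libraries. In 11 of the 13 genes, the 4 members included, BV-3 resistant libraries 1 and 2 were also at or below 0.3 FPKM. Among these 11, CK resistant library 2 was at 0 for both chitinases, GF14-D and the second glutaredoxin-C1 gene. NewGene_9014 was at 0 in all CK resistant libraries.

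The genes whose levels followed the members most closely over the 12 libraries were sought among 19955 named genes, by Pearson's r of log2(FPKM + 1). The libraries and the BV-3 susceptible zeros are shared by all points. Nearest to arginine decarboxylase 2 were ATP-dependent Clp protease proteolytic subunit 5 (Zm00001eb014750, r = 0.96), a part of the chloroplast protease, phosphoglucan phosphatase LSF2 (Zm00001eb163970, r = 0.94), an enzyme of starch breakdown, and an ARM repeat protein (Zm00001eb074980, r = 0.94). Nearest to glutaredoxin-C1 were SNF1-related protein kinase regulatory subunit beta-1 (Zm00001eb352470, r = 0.98), a subunit of the plant's energy-sensing kinase, glutaredoxin-C15 (r = 0.97) and the second glutaredoxin-C1 gene Zm00001eb131830 (r = 0.96). Nearest to AVT1C were AVT1B (Zm00001eb154750, r = 0.97), ASC1-like protein 1 (Zm00001eb183320, r = 0.95) and FCS-Like Zinc finger 1 (Zm00001eb072650, r = 0.94), of a family that binds the same kinase. Nearest to LBD37 were a gene described as Os12g0208950 (Zm00001eb296820, r = 0.97), the kinase subunit beta-1 Zm00001eb352470 (r = 0.96) and probable xyloglucan endotransglucosylase/hydrolase protein 23 (Zm00001eb226470, r = 0.95), a cell wall enzyme.

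The kinase subunit beta-1 (Zm00001eb352470) had 31.8, 43.7 and 18.5 FPKM in CK susceptible, 9.66, 0.566 and 16.7 FPKM in CK resistant, 0.525, 1.39 and 1.09 FPKM in BV-3 susceptible and 0.963, 2.09 and 11.6 FPKM in BV-3 resistant libraries. CK resistant library 2 was low and BV-3 resistant library 3 high in it, as in glutaredoxin-C1 and LBD37. The Clp protease subunit (Zm00001eb014750) had a narrower range, 39.9 to 48.3 FPKM in CK libraries other than CK resistant library 2 (23.8) and library 3 (36.3), and 15.1 to 24.3 FPKM in BV-3 libraries. Nearest to the mean of the 4 standardized profiles were probable 3-hydroxyisobutyrate dehydrogenase (Zm00001eb224720, r = 0.98), of valine breakdown, a polyprotein gene (NewGene_568, r = 0.97), the chloroplast kinase ABC1K7 (Zm00001eb228720, r = 0.97), Derlin-2.2 (Zm00001eb064710, r = 0.96) and again the Clp subunit (r = 0.96). Of these 17 choices, 7 were also made with a pseudocount of 0.1 in place of 1.

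**Figure D5:**
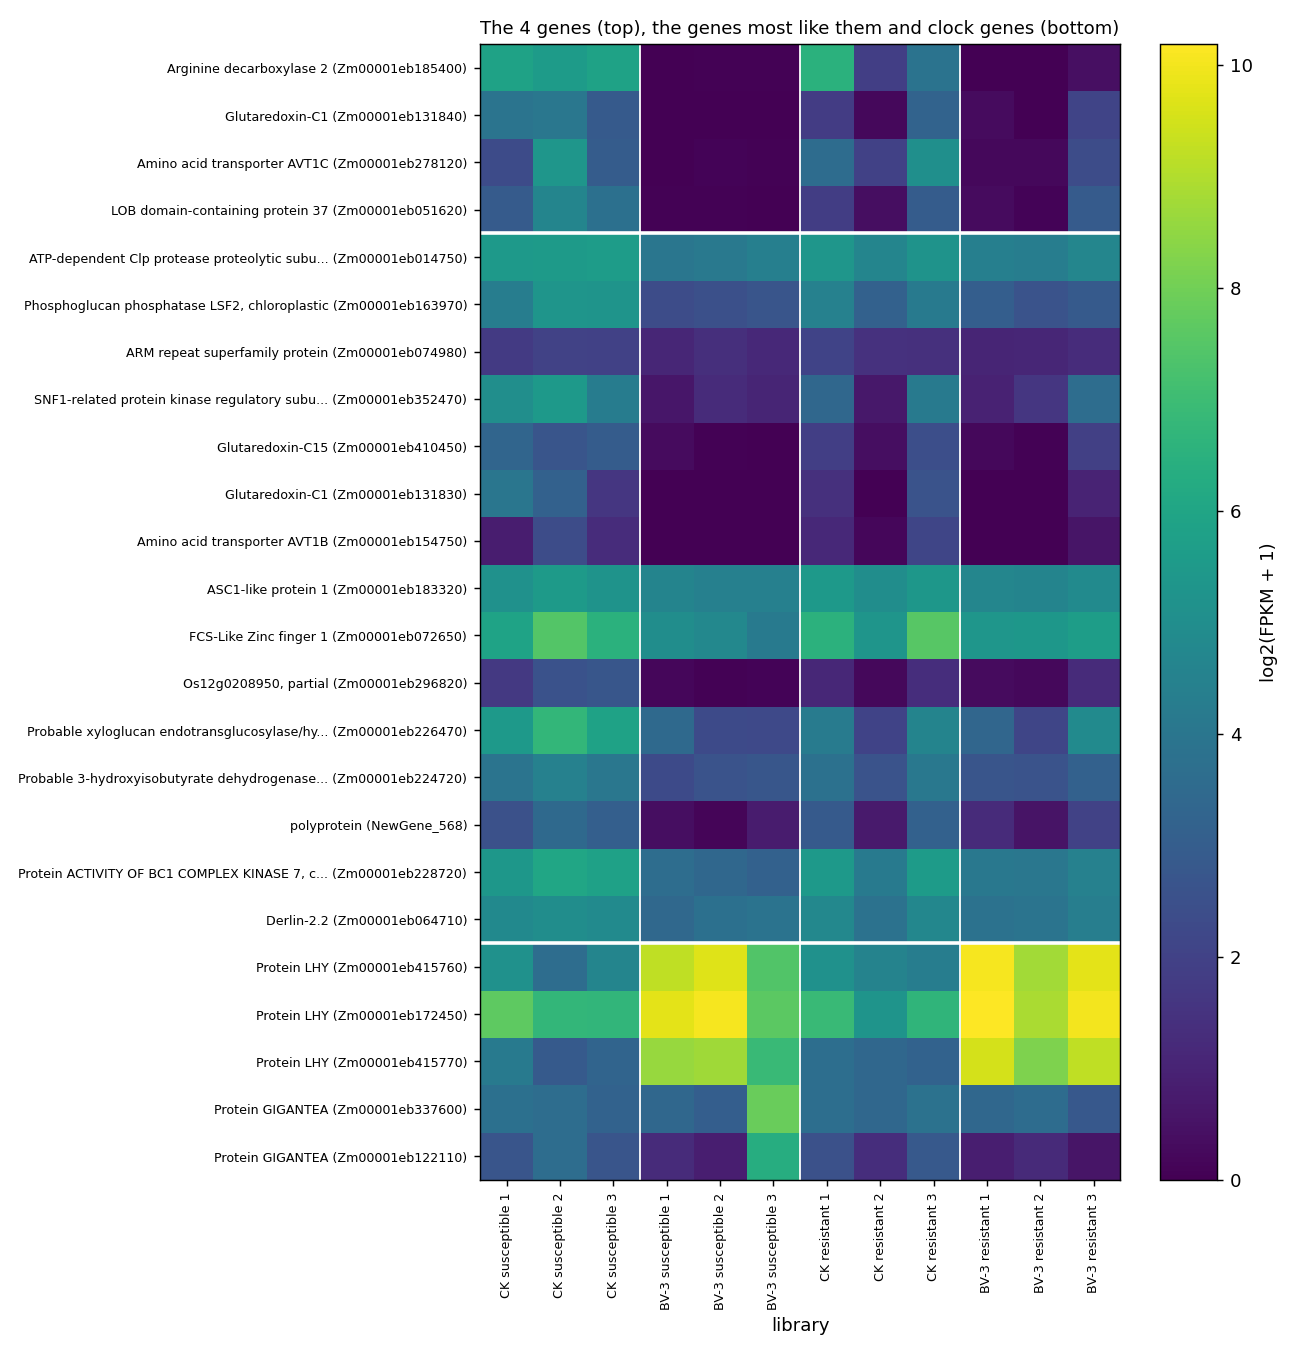
Heat map of log2(FPKM + 1), from dark (0) to yellow (highest), with rows for the 4 genes, the genes with the highest r to them, and LHY and GIGANTEA clock genes that reached at least 20 FPKM; columns are the 12 libraries in their groups. The rows of the most similar genes, chosen by r over these same libraries, are darker in BV-3 susceptible than in CK susceptible libraries. Most are also darker in CK resistant library 2 than in the other CK libraries. The 3 LHY rows are brighter in all BV-3 libraries than in the CK libraries of the same class. The exception is 1 LHY gene in BV-3 susceptible library 3, and GIGANTEA is bright only in that library.

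The heat map of the most similar genes also carries the clock genes, and 3 LHY rows run opposite to the members. LHY gene Zm00001eb415760 had 34.7, 11.3 and 23.8 FPKM in CK susceptible, 34.6, 22.5 and 19.2 FPKM in CK resistant, 590, 831 and 169 FPKM in BV-3 susceptible and 1055, 436 and 860 FPKM in BV-3 resistant libraries. BV-3 susceptible library 3 stood apart from the other two in the evening gene GIGANTEA (Zm00001eb337600), with 229 FPKM against 6.05 to 13.4 in all other libraries. The 4 members were at or near 0 in that library as in BV-3 susceptible libraries 1 and 2.

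The other genes of the pathways were tested in the fit over all genes, of which edgeR called 2125 when susceptible libraries under BV-3 and CK were compared (6.20%; 2.30% higher and 3.90% lower under BV-3) and 0 (0%) among resistant libraries. In the 7 lists together, 34 genes other than the members passed in the susceptible comparison. Without CK susceptible libraries 2 and 3 together, 1 CK susceptible library is left, so only fold changes are given for that fit. The count of list genes that passed was 0 when CK susceptible 2, CK susceptible 3 or CK resistant 3 was left out alone. It was also 0 without any 1 BV-3 susceptible library, without BV-3 resistant 1 or without BV-3 resistant 2. It was 1 without CK resistant 1, 2 without BV-3 resistant 3, 65 without CK resistant 2 and 79 without CK susceptible 1. DESeq2 gave 89. The directions below are those of the fit with all libraries.

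Of 17 other polyamine synthesis genes tested, 0 rose and 1 fell in the susceptible comparison, and the median log2 fold change was 0.22 against 0.07 for all genes. The gene that fell was agmatine deiminase (Zm00001eb424480), which acts on the product of arginine decarboxylase. It had 39.9, 43.4 and 38.1 FPKM in CK susceptible and 13.0, 14.5 and 19.0 FPKM in BV-3 susceptible libraries. Its log2 fold change was -1.40 (edgeR adjusted p = 0.0440), and -1.41 without CK susceptible libraries 2 and 3. In the resistant class it had 39.9, 15.6 and 34.5 FPKM under CK and 16.1, 17.9 and 21.6 FPKM under BV-3 (log2 fold change -0.63, edgeR adjusted p = 0.548). CK resistant library 2 was again the low control. Spermidine synthase 1 (Zm00001eb094730) did not pass, with log2 fold changes of -1.45 and -1.17 in the susceptible and resistant classes (edgeR adjusted p = 0.0514 and 0.397). Its treatment groups did not overlap in either, with BV-3 lower, as in 14.1% and 9.46% of all genes tested. Ornithine decarboxylase (Zm00001eb331690), which makes putrescine by the other route, was at 0 to 0.089 FPKM in CK libraries and 0.0882 to 3.67 FPKM in BV-3 libraries, and did not pass in either class (edgeR adjusted p = 0.181 and 0.329).

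Of 24 genes tested that use polyamines or arginine, 0 rose and 1 fell in the susceptible comparison (median 0.31). Putrescine hydroxycinnamoyltransferase 1 (Zm00001eb124150), which joins putrescine to phenolic acids, had 5.24, 7.39 and 28.9 FPKM in CK susceptible and 0.131, 0.0951 and 0.857 FPKM in BV-3 susceptible libraries. Its log2 fold change was -5.22 (edgeR adjusted p = 0.0455), and -3.76 without CK susceptible libraries 2 and 3. Polyamine oxidase 1 (Zm00001eb413630), which breaks down polyamines, had 374, 236 and 188 FPKM in CK susceptible and 20.4, 104 and 23.1 FPKM in BV-3 susceptible libraries. In the resistant class it had 410, 195 and 163 FPKM under CK and 40.3, 25 and 120 FPKM under BV-3. The groups did not overlap in either class, with BV-3 lower, as in 14.1% of all genes tested in the susceptible and 9.46% in the resistant class. Neither change passed the test (edgeR adjusted p = 0.0879 and 0.464).

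Of 37 other glutaredoxins tested, 1 rose and 1 fell in the susceptible comparison, with a median of -0.60. Monothiol glutaredoxin-S5 (Zm00001eb295860) rose from 2.35, 2.25 and 2.08 FPKM to 9.43, 16.5 and 20.3 FPKM. Its log2 fold change was 2.37 (edgeR adjusted p = 0.0400), and 1.84 without CK susceptible libraries 2 and 3. Monothiol glutaredoxin-S11 (Zm00001eb240990) passed as lower (log2 fold change -7.83, edgeR adjusted p = 0.0478), but it was at 0 in CK susceptible library 1 as in the BV-3 susceptible libraries, and at 1.33 and 0.995 FPKM in CK susceptible libraries 2 and 3, so that no difference is left without these. Glutaredoxin-C15 did not pass in that comparison (edgeR adjusted p = 0.0583).

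Of 76 other amino acid transporters tested, 7 rose and 3 fell (median 0.72). Lysine histidine transporter 1 (Zm00001eb412940) had 1.09, 1.45 and 0.548 FPKM in CK susceptible and 5.67, 22.5 and 66.2 FPKM in BV-3 susceptible libraries. Its log2 fold change was 4.99 (edgeR adjusted p = 0.0383), and 4.89 without CK susceptible libraries 2 and 3. GABA transporter 1 (Zm00001eb147400) and cationic amino acid transporter 1 (Zm00001eb050630) rose by 2.62 and 4.63 on the log2 scale (edgeR adjusted p = 0.0383 and 0.0398). Without CK susceptible libraries 2 and 3 these changes were 2.4 and 4.6. All 3 act in uptake into cells in Arabidopsis, unlike the vacuolar AVT1 proteins. Of 28 other LOB domain genes tested, 0 rose and 0 fell, with a median of 0.83. An unadjusted edgeR p under 0.05 was reached by 7 of the 28, against 9154 of all 34291 genes tested. LBD41 (Zm00001eb019930) had 8.22, 0 and 0.543 FPKM in CK susceptible and 53.3, 68.0 and 22.1 FPKM in BV-3 susceptible libraries (log2 fold change 3.98, edgeR adjusted p = 0.115).

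The processes that LBD37 represses in Arabidopsis were listed too. Of 133 nitrogen uptake and assimilation genes tested, 6 rose and 8 fell (median 0.29), and of 40 anthocyanin synthesis genes 5 rose and 1 fell (median 0.44). Nitrate reductase [NADH] 1 (Zm00001eb037860), which reduces nitrate to nitrite, had 1.25, 0.379 and 0.226 FPKM in CK susceptible and 14.2, 23.8 and 23.6 FPKM in BV-3 susceptible libraries. Its log2 fold change was 5.01 (edgeR adjusted p = 0.0316), and 3.97 without CK susceptible libraries 2 and 3. In the resistant class it had 0.604, 0.934 and 0.378 FPKM under CK and 10.8, 5.21 and 11.5 FPKM under BV-3, without overlap (log2 fold change 3.93, edgeR adjusted p = 0.254). Transcription factor NIGT1 (Zm00001eb406660), a nitrate-inducible repressor, had 1.63, 8.84 and 8.92 FPKM in CK susceptible and 0.169, 0.316 and 0.0306 FPKM in BV-3 susceptible libraries. Its log2 fold change was -5.00 (edgeR adjusted p = 0.0396), and -3.10 without CK susceptible libraries 2 and 3. In the resistant class it had 2.20, 2.77 and 1.60 FPKM under CK and 0.147, 0.392 and 0.509 FPKM under BV-3 (log2 fold change -2.58, edgeR adjusted p = 0.382). In both genes the BV-3 and CK libraries did not overlap in either class, while LBD37 itself overlapped in the resistant class only. Under BV-3, nitrate reductase was higher and NIGT1 lower. Of all genes tested, 14.1% in the susceptible and 9.46% in the resistant class were lower under BV-3 without overlap. These shares stand beside NIGT1 only, as the share of genes higher without overlap was not counted. Among anthocyanin genes, flavanone 3-dioxygenase 2 (NewGene_9844) rose from 14.5, 4.98 and 13.3 FPKM to 76.7, 106 and 218 FPKM in the susceptible class. Its log2 fold change was 3.56 (edgeR adjusted p = 0.0398), and 3.14 without CK susceptible libraries 2 and 3. In the resistant class it had 28.1, 9.17 and 40.9 FPKM under CK and 52.4, 45.9 and 26.5 FPKM under BV-3. These groups overlapped, with a log2 fold change of 0.76 (edgeR adjusted p = 0.694).

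In the resistant comparison no list gene passed (0 higher and 0 lower in each list by edgeR). Of all 34291 genes tested, 3452 had an unadjusted p under 0.05. The lists had 5, 4, 5, 10, 2, 28 and 6 such genes, of 17, 24, 37, 76, 28, 133 and 40 tested, in the order given above. Their medians there were 0.00, -0.01, -0.12, 0.46, 0.20, 0.18 and 0.66, against -0.07 for all genes.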

How the data were processed

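RNA of 12 libraries was poly(A)-selected and sequenced as strand-specific paired reads, per the labels' protocols. The authors deposited 1 table with a raw count and an FPKM value per gene and library, per the file headers. The genome build is B73 RefGen version 4, per the submitters' processing notes; the aligner, the counter, the strand setting and the annotation are not given in the sources. Without them, reads of near-identical, overlapping or antisense genes may have been shared, and no coordinates or sequences are printed; RefSeq positions served only to find neighbouring genes.

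The table held 52932 genes (39756 annotated and 13176 NewGene models) after 2 lines that name no gene were dropped, and 30694 had an informative name. Deposited counts were tested with edgeR 4.0.16 (R 4.3.3; TMM scaling, filterByExpr, quasi-likelihood test, 4 group means over 12 libraries) and adjusted over 34291 genes by the Benjamini-Hochberg method at 0.05. The common biological coefficient of variation was 0.682. Levels and single-gene permutation tests used the authors' FPKM, on log2(FPKM + 1). The scripts were tested on simulated data. Alternatives were upper-quartile scaling, no filter, a replicate block, limma 3.58.1 on log2(FPKM + 1) and log2(FPKM + 0.1), DESeq2 1.42.0, a fit of 1 disease class, and fits without libraries.

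The genes named are the 4 members; for likeness, the 3 genes with the highest r to each and the 5 to their mean, among genes reaching 2 FPKM; per list, up to 3 with the smallest p and a group mean of at least 1 FPKM in each class; and namesakes. Examples were drawn from these. Genes of the on and off pattern, neighbours and clock genes were named after their values were seen. Line markers were genes above 2 CPM in each BV-3 library of one class with at most 2 counts in any of the other. The members and lists were chosen with earlier results of these data known. Lists were patterns over the deposited descriptions. RefSeq names and neighbours were matched by symbol. P-values set the changes against the spread between these libraries. In edgeR that spread was estimated over all 4 groups. It includes CK susceptible, whose libraries held the line markers of different classes.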

Additional observations from a re-analysis of the deposited data

How the results depend on the processing

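In the resistant comparison the number of genes called was 0 in 16 of 21 alternatives; it was 7 and 5 with limma on log2(FPKM + 1) and log2(FPKM + 0.1), 1044 with DESeq2, and 0 to 3 with 1 library left out (2 without BV-3 susceptible 3, 3 without BV-3 resistant 2). Over the 21 alternatives the log2 fold change ran from -14.45 to -3.96 for arginine decarboxylase 2 (adjusted p 2.33e-06 to 0.921), from -4.63 to -0.16 for glutaredoxin-C1 (0.603 to 1), from -6.44 to -2.19 for AVT1C (0.16 to 0.921) and from -4.25 to 0.65 for LBD37 (0.604 to 1). Arginine decarboxylase 2 passed with DESeq2 alone (-8.34), and LBD37 reversed in 3 alternatives (0.65, 0.17 and 0.21). The cause was not tested. List genes called in the susceptible comparison numbered 34, and 89 with DESeq2, 11 with the replicate block and 0 to 79 with 1 library left out. Fits without CK susceptible 2 and 3 leave 1 CK susceptible library, so their counts in that comparison are not given. The fit that also left out CK resistant 2 was added after seeing the data. The count of genes with the on and off pattern was 34 with at least 2 FPKM.

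The same-numbered CK and BV-3 libraries deviated together with r of 0.0373, -0.149 and -0.0133 in the susceptible class and 0.369, 0.448 and -0.0622 in the resistant class. Pairs with different numbers ran from -0.0998 to 0.153 in the susceptible class and from -0.461 to 0.312 in the resistant class. Whether same-numbered libraries share a batch was not tested. With the replicate block the resistant changes were -8.12, -2.04, -4.11 and -1.14 for arginine decarboxylase 2, glutaredoxin-C1, AVT1C and LBD37, with 0 genes called. Levels of the 4 genes under 0.1 FPKM rest on 0 to 6 counts.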
